A study of Mus musculus with 4 samples.

Results

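Promoters that carried phosphorylated STAT3 (pSTAT3-Y705) in more than 1 state of LSK cells (Lin-Sca1+cKit+, sorted from bone marrow and rich in hematopoietic stem cells and early progenitors) were described across normal, leukemic and imatinib-treated leukemic mice. Members were chosen by the measured peak positions: a gene entered when the deposited peak table listed a peak within 1000 bp of its transcription start site (TSS), with a RefSeq mRNA accession, in 2 or 3 of the 3 libraries. Chromosome Y, Zfp and histone genes and 7 genes given by name (Stat3, Jak3, Prkag1, Eef2, Pgam1, Cox7a2 and Nfe2) were left out. This removed 8 genes that would otherwise have entered, 6 of them among the 7 given by name. This gave 72 genes of 257 with a promoter peak in at least 1 library and of 958 genes named in the table. Because the listed peaks chose the members, membership and library pattern are a description and were not tested.

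WT cells came from untreated wild-type C57BL/6 mice and CML cells from untreated C57BL/6 mice of the chronic myeloid leukemia model. CML-TKI cells came from CML mice given imatinib, a BCR-ABL kinase inhibitor, on alternate days, at 200 mg/kg for 4 weeks by the sample label and at 400 mg/kg for 30 days by the treatment protocol. The study's CML model is the double transgenic BCR-ABL×SCL-tTA mouse, in which an SCL-driven transactivator expresses BCR-ABL in stem cells once tetracycline is withdrawn. Ages, the number of mice pooled, and whether primary or transplanted mice were used are not given in the sources used here. With 1 library per group, differences are unreplicated and none was tested. The peak table had 3529 entries from CML-TKI, 1464 from CML and 1031 from WT, and no counts or scores. Depth is therefore unknown, and a promoter missing from a library's list cannot be read as unbound. An IgG input sample was not analysed here. Peak positions do not measure marker genes, so the LSK label could not be checked. All peak positions are in mm9, and distances run from the TSS to the peak center, upstream negative. For some wide WT peaks the listed distance was that of a narrower peak in another library.

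STAT3 is a latent transcription factor of the cytosol. Cytokine receptors and their JAK kinases phosphorylate it on a tyrosine near its C terminus, after which paired STAT3 molecules enter the nucleus and bind DNA. The classical binding element is the palindrome TTCNNNGAA. In hematopoietic cells STAT3 is best known as the effector of interleukin-6 and related cytokines.

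CML-TKI was part of every pattern. Of the 72 members, 46 were listed in WT and CML-TKI, 15 in CML and CML-TKI, and 11 in all 3 libraries, while 0 were listed in WT and CML alone. All 57 promoter genes of WT were members, whereas 26 of 96 CML promoter genes (27.1%) and 72 of 187 CML-TKI promoter genes (38.5%) were. The remaining promoter genes were 70 in CML only and 115 in CML-TKI only. Over all promoter genes 28.0% were listed in 2 or 3 libraries, against 36.7% of the genes named only by peaks farther from a TSS. The rule fixed that share, and nothing is read from it.

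**Figure D1:**
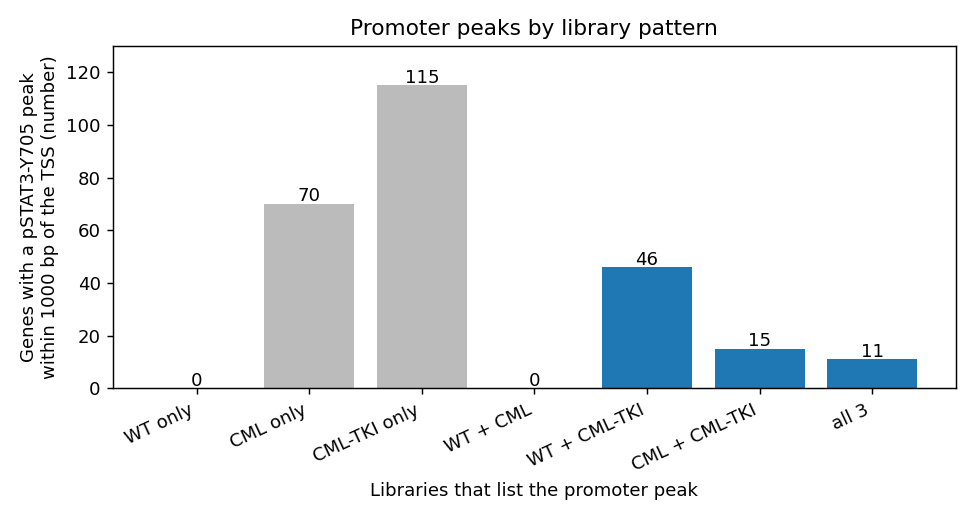
Number of genes with a pSTAT3-Y705 peak within 1000 bp of the TSS (vertical axis) by the libraries that list it (horizontal axis), with single-library promoters in grey and shared promoters in blue. The WT and CML-TKI bar reaches 46, the CML and CML-TKI bar 15 and the bar of all 3 libraries 11, while WT only and WT with CML stand at 0.

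Promoter peaks of WT and CML shared 11 genes, which were 19.3% of the 57 in WT and 11 of the 96 in CML. Among genes without a promoter peak they shared 85, which were 59.0% of the 144 in WT and 85 of the 289 in CML. CML-TKI held 57 of 57 WT promoter genes and 143 of 144 other WT genes (99.3%), out of 187 promoter genes and 374 others of its own. CML and CML-TKI shared 26 promoter genes, 27.1% of those in CML and 13.9% of those in CML-TKI, and 136 other genes, 47.1% of those in CML. These shares come from the listings that the rule used, a gene without a promoter peak can be shared through any distal site, and nothing is read from the differences.

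Only a few members held the STAT palindrome, and their sequences show where it lay. They are the RefSeq promoter windows (GRCm38.p6, 250 bp before to 50 bp after the start, matched by symbol and accession) that held a TTCNNNGAA match, shown in capitals on the gene's own strand. Bases are counted from the start, which is 0, and are negative before it. Peak distances are from the TSS of the same accession in the mm9 table, and whether both starts are the same base was not tested, so the offsets are given side by side only.
Bcl6 (chr16:23988853-23989102, minus strand, -250 to -1): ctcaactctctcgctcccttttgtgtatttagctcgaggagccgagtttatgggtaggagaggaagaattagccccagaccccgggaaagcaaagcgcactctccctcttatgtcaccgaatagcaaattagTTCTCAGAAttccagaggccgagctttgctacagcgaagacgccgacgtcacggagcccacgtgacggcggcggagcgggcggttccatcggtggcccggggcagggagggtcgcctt
Arl6ip1 (chr7:118129660-118129689, minus strand, -64 to -35): ttggcccgacTTCCCAGAAgccggagtgcg
2410016O06Rik (chr12:83950628-83950657, plus strand, 20 to 49): gactcgcccccTTCCCAGAAagcaccacgg

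A window was found for 58 members, and 3 of them (5.17%) held TTCNNNGAA, which reads the same on both strands, against 7.78% of all 20316 protein-coding RefSeq windows, 6.0% of the 50 windows of promoters in CML only and 4.35% of the 92 in CML-TKI only. The share among the members was no higher than that of all windows. The match in Bcl6, a transcriptional repressor of germinal center B cells whose gene is a known STAT3 target, lay at -118 to -110, and the Bcl6 peaks were centered at -166 and -149. In Arl6ip1, which encodes a membrane-shaping protein of the endoplasmic reticulum, the match lay at -54 to -46 and the peak at 167. In 2410016O06Rik, named Riox1 in the RefSeq table and encoding a ribosomal oxygenase, the match lay at 31 to 39 and the peak at -685. The stricter form TTCCNGGAA, which is one case of TTCNNNGAA, was in 0 members and in 1.19% of all windows. The window is shorter than the promoter limit of the rule: only 32 members had a peak at a listed distance inside its range.

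Peaks of a member mostly lay at one place in all libraries that listed it. Peaks overlapped by at least 1 bp in every pair of libraries for 71 of 72 members. This count includes entries with rounded ends, for which an equal distance to the same TSS gave an overlap by construction. Without those entries, peaks overlapped in 53 of 55 members. In 4 of the 11 members in all libraries, 12 of the 15 in CML and CML-TKI, and 42 of the 46 in WT and CML-TKI, each pair of libraries listed the same site, that is, equal start and end or, where ends were rounded, an equal distance to the same TSS. With full ends in both lists, 28 of 41 members had equal ends in WT and CML-TKI, and 15 of 25 in CML and CML-TKI. Of the member sites, 65.9% of 44 in WT recurred with equal ends in CML-TKI, against 37.4% of the other 476 WT sites off chromosome Y. For CML sites the values were 59.3% of 27 and 37.7% of 597, and membership itself asked for a second library, which was CML-TKI in each case. Whether equal ends come from separate calls or from a shared merge of the lists is not stated, and its part in the overlap was not tested.

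Brd2, which encodes a bromodomain reader of acetylated histones, was the exception in the count that includes rounded ends. Its CML peak (mm9 chr17:34256656-34256791) was centered at 122 bp and its CML-TKI peak (chr17:34255996-34256195) at 750 bp, and they did not overlap. Both lay in the first exon of a noncoding transcript. By full ends only, the CML-TKI peaks of Ddx5 also overlapped neither its WT nor its CML peak.

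Most members carried their peak close to the start, but the rule itself limited the distance to 1000 bp. In CML-TKI the nearest peak was within 300 bp of the TSS for 57 of 72 members, at a median of -53.5 bp (quartiles -192.25 and 35.75), and upstream of it for 47. The medians were -66 bp in WT (57 members) and -7.5 bp in CML (26 members). Promoters of CML-TKI only had a median of -56 bp, with 96 of 115 within 300 bp. Those of CML only had a median of -36 bp, with 51 of 70 within 300 bp. Position thus set the shared promoters little apart. By the table's region classes, 58 members had a peak at a promoter, 9 in an intron, 5 in a 5' UTR, 1 in an exon and 1 in a noncoding exon, with 2 members in more than 1 class. A repeat was annotated at 1 member, 1600002K03Rik (Fam174c), by a B1 SINE in WT and CML.

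Of the 11 members listed in all libraries, 4 had equal sites in each pair. Atf4, the transcription factor of the integrated stress response, had a peak in its 5' UTR at 436 bp in every library (chr15:80085916-80086185, 269 bp wide), and CML-TKI listed a second at 492 bp. Bcl6 had a promoter peak of 240 bp at -166 bp in every library (chr16:23988744-23988984), and CML-TKI added one of 379 bp around it. Plk1, the mitotic kinase, had a peak at 31 bp that was 252 bp wide in WT and CML (chr7:129302856-129303108), and CML-TKI listed that distance with rounded ends and a 262 bp peak at 50 bp. Vmn2r29, a vomeronasal receptor of a large gene family, had a 521 bp peak at -7 bp in each library, with a second of 531 bp in WT and of 506 bp in CML-TKI. Peaks in multigene families may be split or shared between copies, and Vmn2r29 and Vmn2r89 are uncertain for that reason.

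The other 7 overlapped with different ends in at least 1 pair. Ubb, which encodes polyubiquitin, had an intronic peak at 114 bp in each library, 284 bp wide in WT and 277 bp in CML and CML-TKI. Rps29, a protein of the small ribosomal subunit, had peaks at -121 bp of 191 bp in WT and 165 bp in CML, and CML-TKI listed the 165 bp peak and one of 289 bp. Gbas, a mitochondrial protein gene named Nipsnap2 in the RefSeq table, had a peak at -54 bp of 196 bp in WT and 173 bp in CML. CML-TKI listed Gbas at that distance with rounded ends and added a 333 bp peak at -69 bp. Ddx5, an RNA helicase of transcription and splicing, had a peak at 244 bp of 363 bp in WT and 299 bp in CML. CML-TKI listed Ddx5 at that distance with rounded ends and added peaks at -222 and 698 bp. In these 4 genes the nearest WT, CML and CML-TKI peaks lay on the same side of the TSS except in Ddx5, where the nearest CML-TKI peak was the added one at -222 bp.

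Sfi1, which encodes a centrosome protein and lies in a repeated region, had a widest promoter peak of 1228 bp (WT), 314 bp (CML) and 1131 bp (CML-TKI). The widest WT peak had the listed distance and the end of the widest CML-TKI peak, so its width is uncertain. Beyond 1000 bp Sfi1 had 81 further CML-TKI sites, 65 WT sites and 26 CML sites. No other member came near these numbers: 9 members had any site beyond 1000 bp, and the next highest was Vmn2r89 with 7 in CML-TKI. 1600002K03Rik had a 237 bp peak at 364 bp in WT and CML and a 298 bp peak at 237 bp in CML-TKI. 2610005L07Rik, a gene of a repeated locus, had a peak at -26 bp of 259 bp in WT and 198 bp in CML and CML-TKI.

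**Figure D2:**
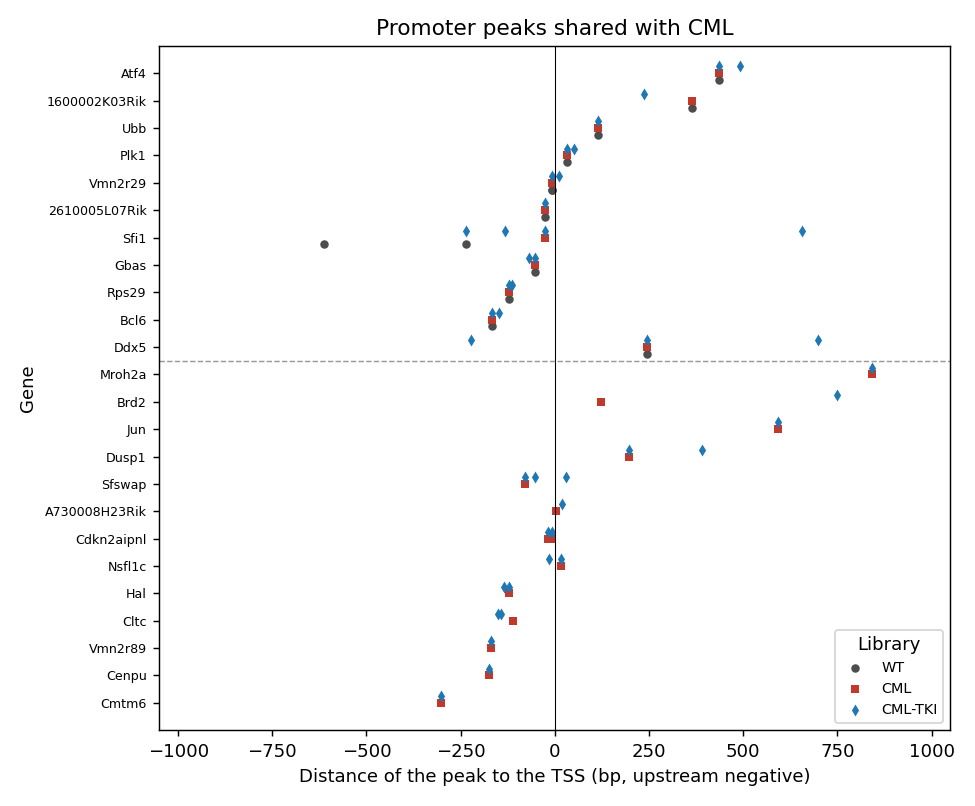
Distance of each listed promoter peak to the TSS (horizontal axis, bp, upstream negative) for the 11 genes in all 3 libraries (above the dashed line) and 13 of the 15 in CML and CML-TKI (below it), with circles for WT, squares for CML and diamonds for CML-TKI. Symbols of a gene mostly coincide, Brd2 shows CML at 122 bp and CML-TKI at 750 bp, and CML-TKI has added diamonds, for example at Ddx5, Dusp1 and Sfswap.

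The 15 members of CML and CML-TKI were spread over known roles of their proteins, with at most 2 in any named role and 4 in none. Jun, an AP-1 subunit, had a 5' UTR peak of 262 bp at 593 bp in both libraries (chr4:94718189-94718451). Dusp1, a phosphatase that inactivates MAP kinases, had an exonic peak of 198 bp at 197 bp in both (chr17:26645121-26645319), and CML-TKI added one of 171 bp at 391 bp. Neither Jun nor Dusp1 was listed in WT at any distance.

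Nsfl1c, a cofactor of the segregase VCP, had a 154 bp peak at 16 bp in CML, and CML-TKI added one of 177 bp at -16 bp. Cltc, the clathrin heavy chain, had a promoter peak of 216 bp at -112 bp in CML and peaks at -143 and -151 bp in CML-TKI, the wider of 294 bp. Sfswap, a splicing regulator, had a 148 bp peak at -79 bp in CML, and CML-TKI added peaks of 238 bp at -54 bp and 185 bp at 30 bp.

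Cmtm6, which stabilizes the checkpoint ligand PD-L1 at the cell surface, had a 212 bp peak at -302 bp in both libraries. Cenpu, a centromere protein, had one of 164 bp at -175 bp. Hal, which encodes histidine ammonia-lyase, had one of 204 bp at -123 bp in both, and CML-TKI added one of 189 bp at -135 bp. Cdkn2aipnl was listed at -18 and -8 bp in both. A730008H23Rik, whose peak the table also places at another transcript's promoter, had peaks of 248 bp at 4 bp in CML and 345 bp at 19 bp in CML-TKI. Mroh2a (842 bp) and Vmn2r89 (-169 bp) closed the group, each with equal ends in both libraries. Vmn2r89 had 2 WT sites beyond 1000 bp, the only member of this group with a WT site anywhere.

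The 46 members of WT and CML-TKI were listed almost entirely at equal positions. Transcription and chromatin were the most common known role, with 11 of the 46. Roles were assigned to members only, so the role counts have no background share and nothing is read from them. Klf2, a transcription factor of lymphocyte and endothelial quiescence, had a 203 bp peak at 71 bp in both libraries (chr8:74842931-74843134). Cited2, a CBP/p300 coactivator regulator needed to maintain adult hematopoietic stem cells, had a 233 bp peak at 104 bp (chr10:17443022-17443255). Arid1b and Smarcd2, subunits of the SWI/SNF chromatin remodeler, were listed at -648 and 128 bp. The general transcription factors Gtf2a1 and Gtf2b were listed at -137 and -30 bp. Npas4, an activity-dependent factor of neurons (784 bp), Hmga1, an architectural chromatin protein (-987 bp), Dido1 (182 bp), Vwa9 (Ints14, an Integrator subunit, 11 bp) and 2410016O06Rik (-685 bp) made up the rest. Each of these 11 genes was listed at the same distance in WT and CML-TKI, and none was listed in CML at any distance.

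Genes of trafficking and the cytoskeleton were 9 of the 46. Chmp5 and Vta1, which act in ESCRT-dependent sorting, were listed at -106 bp (182 bp wide) and -53 bp (172 bp wide). The small GTPases Rab12 and Rab2b were listed at -127 and -86 bp, Sh3glb1, a membrane-curvature protein of autophagy, at -171 bp, and Vps13d, a lipid transfer protein, at -66 bp. Katnal1, a microtubule-severing protein, stood at -298 bp, Cep164, a centriole protein, at -720 bp, and Arl6ip1 at 167 bp. For Vps13d, CML-TKI added a peak at -61 bp, the only added peak in this role.

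Cell division and DNA repair contributed 5, of which 4 are described. Mdm4, an inhibitor of p53, had a 234 bp peak at -318 bp in WT, and CML-TKI listed that distance and a 219 bp peak at -304 bp. Haus4, of the augmin complex at the spindle, was listed at -208 bp, Timeless, a replication fork protein, at -669 bp, and Ccny, a cyclin, at -187 bp, each at the same distance in WT and CML-TKI. With Plk1 and Sfi1 (all libraries) and Cenpu (CML and CML-TKI), 8 members had this role.

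Mitochondrial and metabolic genes were 5, of which 4 are described. Nfs1, the cysteine desulfurase of iron-sulfur cluster assembly, was listed at -23 bp and Hibch, an enzyme of valine breakdown, at -143 bp (156 bp wide). Wwox, an oxidoreductase, stood at -78 bp and Slc16a6, a monocarboxylate transporter family member, at -296 bp. Protein turnover had 4, namely Rchy1, a ubiquitin ligase (155 bp, 225 bp wide), Fbxo36, an F-box protein (-257 bp), Psmg3, a proteasome assembly chaperone (-109 bp), and Uspl1, a SUMO protease (50 bp). The Fbxo36 peak was 347 bp wide in WT and 323 bp in CML-TKI.

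RNA processing had 3 of the 46, namely Rbm25, a splicing regulator (4 bp), Snrnp35, a protein of the minor spliceosome (13 bp), and Utp3, of small-subunit ribosome biogenesis (-284 bp in WT, -284 and -281 bp in CML-TKI). Yars, a tyrosyl-tRNA synthetase, was listed at 120 bp. In signaling and immunity, Tnfaip8, a TNF-induced regulator of survival, was listed at 153 bp and Traf3ip3, an adaptor of lymphocytes, at -19 bp. The remaining 6 were Ccdc77 (13 bp), Fra10ac1 (-40 bp), Mtl5 (-41 bp), Ttc32 (-169 bp), BC005537 (-270 bp) and Tex14 (-824 bp). Tex14, a protein of germ cell bridges, was the only gene of the 46 named in CML, by 2 sites beyond 1000 bp.

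**Figure D3:**
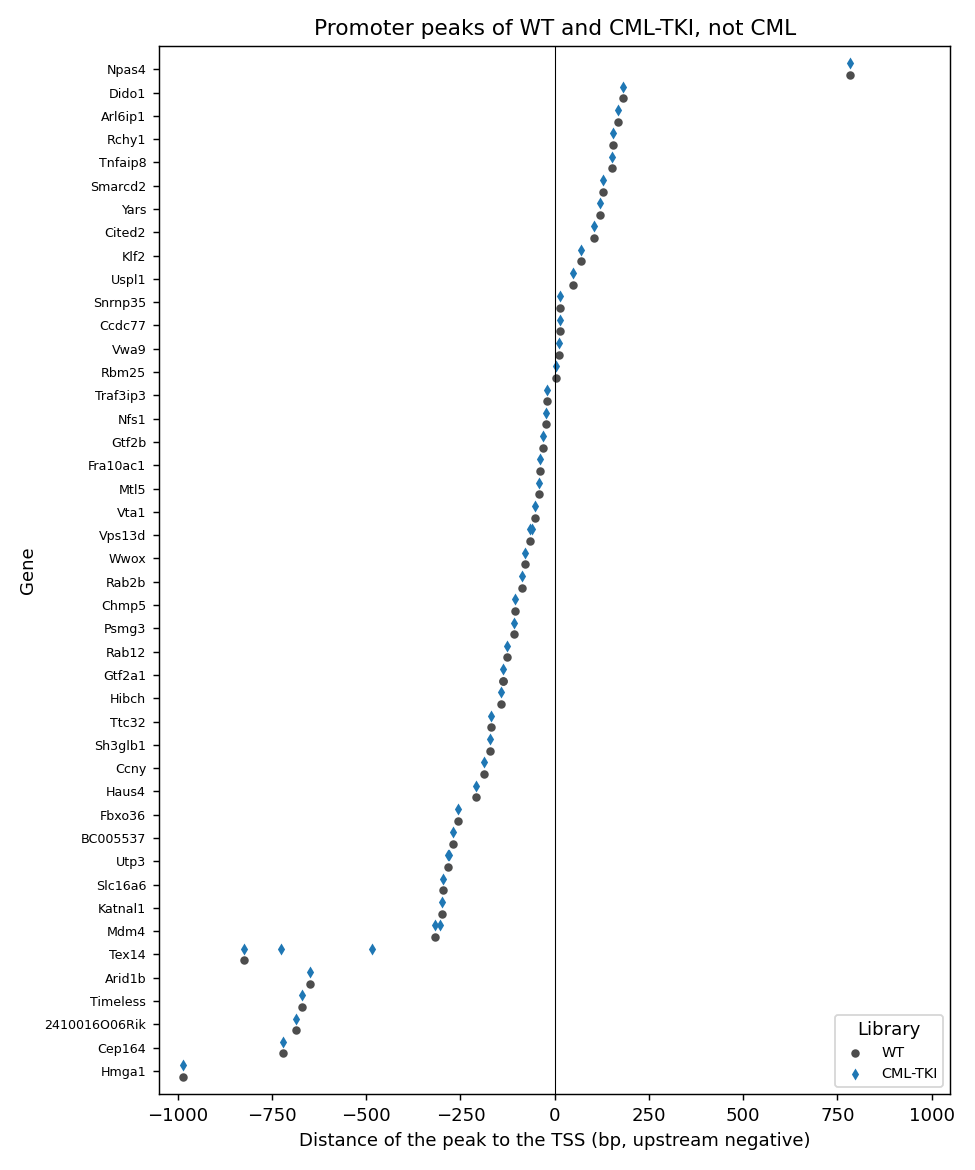
Distance of each listed promoter peak to the TSS (horizontal axis, bp, upstream negative) for 44 of the 46 genes listed in WT (circles) and CML-TKI (diamonds) but not at the promoter in CML. Circles and diamonds of a gene stand at the same distance for nearly all genes, with added CML-TKI peaks at Tex14 (-725 and -484 bp).

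CML-TKI peaks were mostly as wide as CML peaks or wider. Among 25 members with full ends in both lists, the widest CML-TKI peak was wider in 12, equal in 12 and narrower in 1. The narrower one was Ddx5, whose CML-TKI peak at the shared site had rounded ends. Against WT, CML-TKI was equal in 24 of 41, wider in 6 and narrower in 11. The 7 unequal pairs of WT and CML among 11 were all narrower in CML. In Ddx5, Ubb, Rps29, Gbas, 2610005L07Rik and Vmn2r29 the wider WT peak had the CML peak's distance and an equal start or end. An equal distance cannot hold for both centers, so ends and distance of these WT peaks may not describe the same interval. The same was seen against CML-TKI in Ccdc77, Fbxo36, Gtf2a1, Sfi1 and Tex14. These WT widths are therefore uncertain, and the origin of their ends was not tested. Without Sfi1, Vmn2r29, Vmn2r89 and 2610005L07Rik, CML-TKI was wider than CML in 11 of 21 and narrower in 1. Width was not part of the rule, but it is no measure of enrichment, and genes are not replicates of a library.

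Members in all libraries had the highest median of the widest listed peak per gene. In CML-TKI their median was 289 bp (11 genes, 155 to 1131), against 201.5 bp for CML and CML-TKI (14 genes, 133 to 433), 168 bp for WT and CML-TKI (32 genes, 142 to 351) and 189 bp for promoters in CML-TKI only (115 genes). Without the 4 multi-copy genes the first median was 283 bp (8 genes). The widest peaks of the WT and CML-TKI group were those of Ccdc77 (423 bp in WT, 351 bp in CML-TKI) and Fbxo36, and A730008H23Rik (248 bp in CML, 345 bp in CML-TKI) was among the widest of the CML and CML-TKI group. The groups overlapped in range. They also differed in the number of CML-TKI promoter sites, and a gene with more sites can have a wider widest peak. There were 22 sites in the 11 genes of all libraries and 23 in the 15 of CML and CML-TKI. WT and CML-TKI had 52 in 46 genes, and CML-TKI only had 129 in 115. The part of site number in the medians was not tested.

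**Figure D4:**
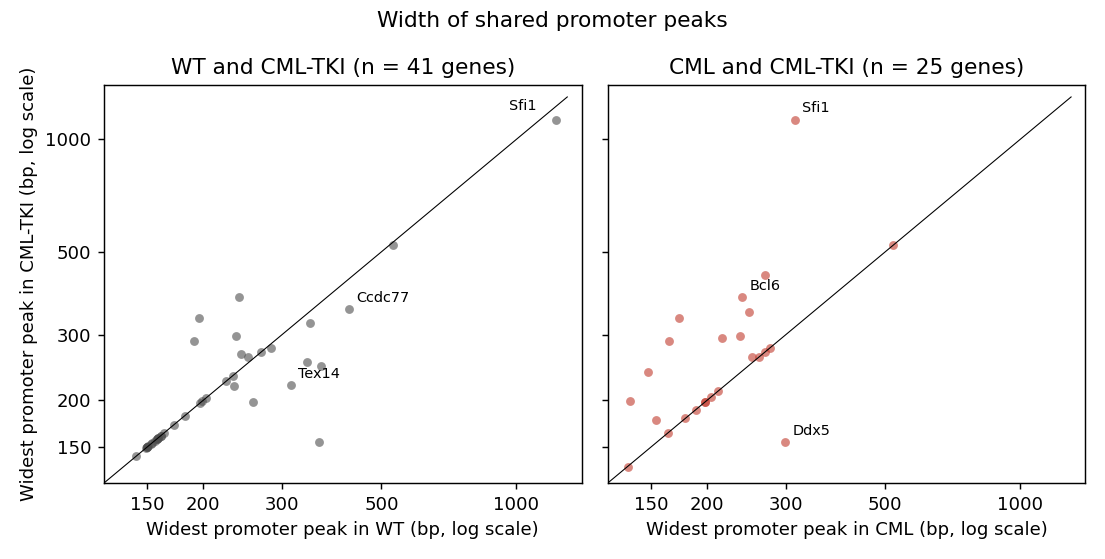
Width of the widest promoter peak of each gene in CML-TKI (vertical axis, bp, log scale) against WT (left, 41 genes) and CML (right, 25 genes), with the line of equal width and 1 point per gene. In the CML panel Ddx5 alone lies below the line, while Ccdc77 and Tex14 are among 11 genes with narrower CML-TKI peaks in the WT panel.

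The members' promoters were CpG-rich, as were promoters listed in a single library. The CpG ratio, the number of CG pairs over that expected from the C and G content, had a median of 0.8 in 58 member windows and 0.59 in all windows. It was over 0.6 in 42 of 58 (72.4%), against 49.1% of all windows, 94.0% of 50 windows of CML only and 83.7% of 92 of CML-TKI only. Median GC content was 60.0% in members and 57.0% in all windows. The members' share and median thus lay above those of all windows and below those of both single-library sets, whose medians were 0.88 (CML only) and 0.84 (CML-TKI only), and the differences were not tested. The range is shown by 2 members in all libraries, with CG pairs in capitals.
Plk1 (chr7:122159285-122159434, GRCm38.p6, plus strand, -150 to -1): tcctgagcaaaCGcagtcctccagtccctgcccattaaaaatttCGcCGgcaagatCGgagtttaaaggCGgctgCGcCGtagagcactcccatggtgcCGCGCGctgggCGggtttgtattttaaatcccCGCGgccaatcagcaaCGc
Vmn2r29 (chr7:7247329-7247478, GRCm38.p6, minus strand, -150 to -1): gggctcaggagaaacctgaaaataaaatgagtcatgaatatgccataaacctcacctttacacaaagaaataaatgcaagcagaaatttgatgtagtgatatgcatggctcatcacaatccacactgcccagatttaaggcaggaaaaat

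Plk1 had 14 CG pairs in these 150 bases and Vmn2r29 had 0. Their windows had CpG ratios of 1.0 and 0.0, although pSTAT3-Y705 peaks were listed at both starts in every library. The Vmn2r29 peaks are uncertain, as stated above, because the gene belongs to a large family.

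**Figure D5:**
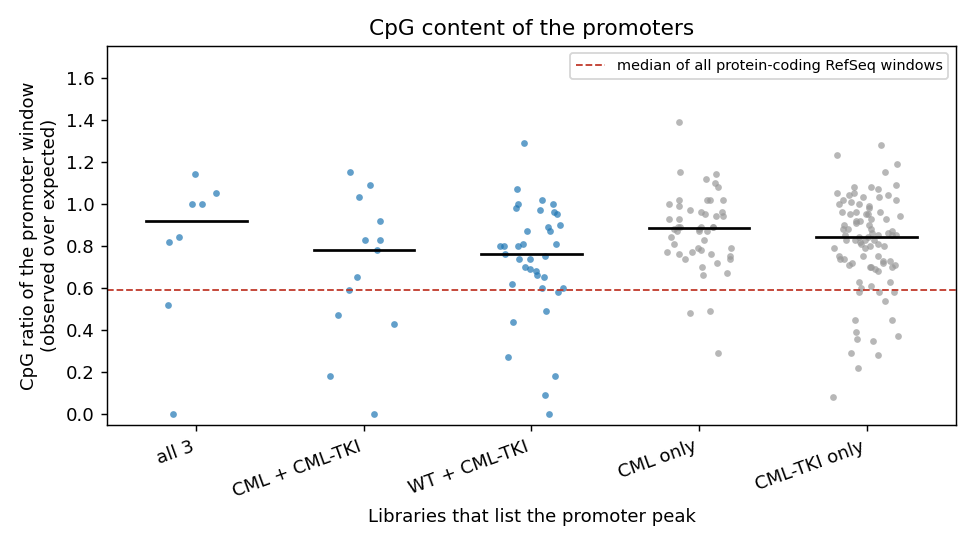
CpG ratio of the RefSeq promoter window (vertical axis, observed over expected) for promoters by the libraries that list the peak (horizontal axis), with 1 point per gene, shared promoters in blue, single-library promoters in grey, black bars at the medians and a dashed line at 0.59, the median of all protein-coding windows. The median of each group lies above the dashed line, and the groups overlap.

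Other motifs were searched on both strands. CCGGAAG, the core bound by ETS factors, was in 12 of 58 member windows (20.7%), against 11.9% of all windows, 30.0% of CML-only and 17.4% of CML-TKI-only windows. GGGCGG, the GC box, was in 34 (58.6%) against 47.6%, and in 64.0% and 73.9% of the single-library sets. TGACGTCA, the cAMP response element, was in 1 (1.72%) against 2.3%, and in 4.0% and 0.0% of those sets. CCAAT was in 23 (39.7%) against 38.4%, and in 34.0% of CML-only and 22.8% of CML-TKI-only windows. CACGTG was in 3 (5.17%) against 8.07%, and in 7 of 50 CML-only and 11 of 92 CML-TKI-only windows. TATAAA was in 6 (10.3%) against 12.5%, and in 8.0% and 6.52%. The members' share was thus above both single-library sets for CCAAT and TATAAA, below both for GGGCGG and CACGTG, and between them for CCGGAAG and TGACGTCA, with no test. The following members held CCGGAAG before the start of the named accession and had a peak at a distance inside the window's range, and these are printed with the motif in capitals (CTTCCGG is CCGGAAG on the other strand), followed by the cAMP element of Dusp1, all from GRCm38.p6.
Chmp5 (chr4:40948436-40948465, plus strand, -117 to -88): gcgctccttctCCGGAAGgaggagctgaaa
Nfs1 (chr2:156144187-156144216, minus strand, -30 to -1): cggtccgtgggatcgCTTCCGGagcacagc
Fra10ac1 (chr19:38224254-38224283, minus strand, -131 to -102): ctctgcttcctCTTCCGGgccttttcttcc
Sfswap (chr5:129501201-129501230, plus strand, -30 to -1): ggaaagagcgggtttcctaCCGGAAGttgc
Dusp1 (chr17:26508597-26508626, minus strand, -154 to -125): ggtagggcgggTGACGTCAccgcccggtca

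In Chmp5 the ETS core lay at -106 to -100, and the listed distance of the WT and CML-TKI peak was -106. Nfs1 had the printed core at -15 to -9 and another at 7 to 13, with a peak distance of -23. Fra10ac1 had the printed core at -120 to -114 and another at -5 to 1, with a peak distance of -40. In Sfswap the core lay at -11 to -5, with peak distances of -79, -54 and 30. In Dusp1 the cAMP element lay at -143 to -136, with peak distances of 197 and 391.

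A protein-coding gene started on the other strand within 1000 bp upstream in 6 of 58 member windows (10.3%), against 8.12% of all windows, 10 of 50 CML-only and 12 of 92 CML-TKI-only windows. The members' share thus lay above that of all windows and below both single-library sets, with no test. The pairs were Nfs1 with Romo1 (47 bp apart), Tex14 with Rad51c (111 bp), Chmp5 with Bag1 (259 bp), Yars with S100pbp (324 bp), Fbxo36 with Trip12 (537 bp) and Ddx5 with Cep95 (758 bp). At these starts the nearest-gene name of a peak does not say which of the pair it belongs to.

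Genes lay near the 1000 bp limit on both sides. Inside it, Hmga1 lay at 987 bp and Mroh2a at 842 bp, by the distance in the library that decided entry. Just outside were Eapp (1068 bp, CML and CML-TKI), Fbxw7 (1177 bp) and Arid3a (1205 bp), the latter pair in WT and CML-TKI.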

How the data were processed

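By the study's methods, ChIP with anti-pSTAT3-Y705 or IgG was sequenced, reads were deduplicated, trimmed and aligned with bwa mem, and peaks were called with MACS2, HOMER, Genrich and SICER2, merged within 100 bp and annotated with HOMER. The methods also describe a merge across libraries to find shared peaks. Partek 8.0 is named in the processing notes of the submitters. Per the file headers, the deposited peak list holds positions, region class, distance to the TSS (from the peak center, by HOMER's convention) and gene names, with no score or signal. Peak ends on 6 chromosomes pass the GRCm38 lengths, so peak positions are given as mm9, while the study's methods name mm10.

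Of 299 member entries, 83 had both ends rounded to 1 Mb. They were dropped where the library listed the same accession and distance with full ends, took the ends of another library in 9 of the 184 distinct sites, and otherwise (30 sites) were compared by distance with an assumed width of 200 bp. Width is end minus start. Members, lists, roles and motifs were chosen with earlier results of these data known. Named genes were the members in all 3 libraries, those of WT and CML alone or with TTCCNGGAA (0 in each case), those without overlap, the 10 with the widest CML-TKI peak in each other pattern and the 3 genes nearest the limit on each side, and the rest were named once by role. Results of 4 members are not reported here by gene, although the counts include them. All 72 symbols matched the RefSeq gene table, and 52 windows lay at the start of the named accession and 6 at another start of the gene. No window was used for the other 14 genes. Coordinates were not converted between mm9 and GRCm38. Motif offsets count from the GRCm38 start and peak distances from the TSS of the mm9 table. The code was tested on simulated data. It ran in Python 3.11.15 with pandas 2.3.3, numpy 2.4.6, matplotlib 3.10.9 and scipy 1.17.1.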

Additional observations from a re-analysis of the deposited data

How the results depend on the processing

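The member count of 72 was 24 with peaks of at least 200 bp, a setting that drops entries with rounded ends. By pattern this left 10 members in WT and CML-TKI, 6 in CML and CML-TKI, 7 in all libraries and 1 in WT and CML alone. Without entries with rounded ends, 55 members were left and WT and CML-TKI had 30. At 5000 bp from the TSS there were 100 members, 22 of them in all libraries, and at 500 bp there were 60. Leaving out a library and leaving out multi-copy loci were chosen after seeing the data. Leaving out WT left 26 members, all in CML and CML-TKI, leaving out CML left 57, and leaving out CML-TKI left 11, all in WT and CML. CML-TKI thus decides most of the count. TTCCNGGAA was in 0 members, in place of 3 with TTCNNNGAA. Peaks overlapped in 53 of 55 members with full ends, and centers lay within 100 bp in 69 of 72. Of 62 alternatives, 50 stayed within 1.5 times the count or inside the 95% interval of the median over members. No paired analysis was possible because a group held only 1 library. Depth and enrichment are unknown, so absence of a peak in a library is not evidence of absent binding.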
